A study of Homo sapiens with 16 samples.

Results

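Acetylation of histone H3 at lysine 27 (H3K27ac) was followed at the zinc finger genes of chromosome 19 whose symbol is ZNF plus a number. The measured features were 1000 bp windows centred on merged open chromatin regions, and each window carried the name of the gene with the nearest transcription start site (TSS). A window was included when it lay on chromosome 19, bore such a symbol and was at most 10000 bp from the TSS, so the rule itself used no H3K27ac value. Earlier results of these data were known when the genes were chosen. This gave 406 of 151654 windows and 200 of 24156 genes, on a chromosome that held 5575 windows in all. Of the 406 windows, 308 were promoter windows (at most 1000 bp from the TSS, 193 genes) and 98 were flanking windows. Each gene had 1 to 5 windows, and 235 windows (57.9%) overlapped another window, so neighbouring windows of a gene shared reads and were not independent of each other. The last windows inside the distance limit belonged to ZNF526, ZNF787 and ZNF791 (9584 to 9756 bp, at a mean level of 1.67 to 4.84 CPM, the read counts scaled to a common library size). The first ones outside it belonged to ZNF807, ZNF766 and ZNF586 (10240 to 10581 bp, with mean CPM of 0.732 to 1.36).

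Most of these genes encode C2H2 zinc finger proteins that carry a KRAB domain. The KRAB domain recruits TRIM28, which in turn brings the methyltransferase SETDB1, and the complex places repressive H3K9me3 on DNA, above all on retrotransposons. The genes arose by tandem duplication and lie on chromosome 19 in dense clusters of near relatives. H3K27ac marks active promoters and enhancers. Type I interferon (IFN) acts through a transcription factor complex that binds the interferon-stimulated response element (ISRE), and USP18 restrains signalling at the IFN receptor and removes ISG15 from proteins.

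The cells were THP-1, a human monocytic leukaemia line, in 4 groups of 2 H3K27ac libraries each. WT cells had received Cas9 only, and USP18-/- cells had lost USP18 by CRISPR editing. Each genotype was left untreated or was given IFNα at 1000 U/ml for 6 h. Edited cells were grown from sorted single cells, so a difference between genotypes and a difference between clones cannot be told apart. The methods call the libraries of a group biological replicates, and no source used here says whether they came from separate cultures, so the p-values below measure the spread between these libraries. In a bulk assay, more cells carrying the mark and more mark per cell cannot be told apart either.

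The libraries held 9082433 to 12971831 rounded counts in the windows, and the windows took 36.1 to 37.3% of all tags in WT libraries and 38.4 to 42.5% in USP18-/- libraries. The promoter window of USP18 stood at 7.85 and 7.62 CPM in WT cells and at 8.20 and 8.47 in USP18-/- cells, which is no check of the deletion, and rose to 18.0 and 15.0 and to 49.2 and 41.7 with IFNα. Of 10 monocytic marker genes 8 had a promoter window, with a summed level of 167 to 239 CPM in the 4 groups. SPI1 alone gave 66.9 to 130 CPM of it, while CD14 (3.63 to 8.76) and CSF1R (1.73 to 2.68) were low. MPO and FCGR1A had no promoter window. Of 10 markers of other cell types 3 had one (KRT8, COL1A1 and PECAM1, 64.3 to 97.2 CPM in sum), and CD3E, MS4A1, GATA1, HBB, EPCAM and ALB were among those with none. PECAM1 made up most of that sum (59.4 to 92.6 CPM). Over all windows, the median log2 difference between untreated genotypes was -0.02, and chromosome 19 as a whole stood at 0.36, the highest of 23 chromosomes (the next was chromosome 20 at 0.16). With IFNα the chromosome 19 median was 0.33. Input libraries were not analysed here, so the copy number of chromosome 19 was not tested, and a copy number difference between the clones and a difference in acetylation along the whole chromosome cannot be told apart.

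The promoters of these genes were rich in CpG, as were those of chromosome 19 as a whole. Of the 200 genes, 173 matched the RefSeq promoters of GRCh38.p14 by symbol (250 bases before to 50 bases after the start). Their median GC content was 60.7%, against 58.7% over 35116 promoters, and the median number of CpG was 21 against 14. Over the 1917 promoters of chromosome 19, these genes among them, the medians were 62.7% and 19. The letters TATAAA, on either strand, were in 4 of the 173 (2.31%) and in 11.5% of all promoters. An ISRE core, searched for as GAAA, a gap of 2 bases and GAAA on either strand, was in 1 of them (ZNF583, 0.578%) and in 3.57% of all promoters. Of the chromosome 19 promoters 6.68% held TATAAA and 2.45% an ISRE core. The searched letters do not overlap each other, and a match describes the letters only. Upstream stretches of 80 bases are shown for ZNF257, ZNF331 and ZNF132, whose promoter windows were among those with the largest rise in USP18-/- cells. They lie at chr19:22052350-22052429 (plus strand, 55 to 134 bases before the start), chr19:53520868-53520947 (plus strand, 67 to 146 bases before) and chr19:58440154-58440233 (minus strand, 1 to 80 bases before). Capitals mark each CpG, of which the stretches hold 4, 4 and 7.
ZNF257: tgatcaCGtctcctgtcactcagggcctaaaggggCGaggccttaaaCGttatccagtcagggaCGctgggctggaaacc
ZNF331: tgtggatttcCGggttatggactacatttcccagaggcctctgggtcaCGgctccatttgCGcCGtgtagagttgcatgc
ZNF132: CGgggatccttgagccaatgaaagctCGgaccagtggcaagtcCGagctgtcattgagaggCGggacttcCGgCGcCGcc

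Among the 1000 bp windows, 38 of the 406 (9.36%) held an ISRE core, against 17.2% of all windows. Of the 10 windows that rose with IFNα in USP18-/- cells, 4 held at least 1. The call of the ZNF507 window was lost under 10 alternatives. The share with a core among all windows that rose was not counted, so the count describes these 4 windows only. Their cores are shown in capitals with the bases around them, on the plus strand of hg38, in the order ZNF507 (chr19:32351852-32351921), ZNF841 at its promoter (chr19:52096336-52096386), ZNF841 upstream (chr19:52102052-52102151, with a second core that reads on the minus strand) and ZNF264 (chr19:57190245-57190314).
ZNF507 intron: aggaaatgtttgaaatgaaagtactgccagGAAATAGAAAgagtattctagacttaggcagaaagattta
ZNF841 promoter: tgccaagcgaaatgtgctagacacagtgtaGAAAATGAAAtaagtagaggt
ZNF841 upstream: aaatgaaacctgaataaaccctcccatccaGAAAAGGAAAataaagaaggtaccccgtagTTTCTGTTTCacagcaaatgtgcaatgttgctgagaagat
ZNF264 upstream: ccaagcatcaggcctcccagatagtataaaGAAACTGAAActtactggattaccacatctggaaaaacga

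H3K27ac at these genes ranged widely, from near zero to levels among the strongest promoters of the set. To give each gene a single level, its window nearest to the TSS was taken (the gene window). All windows have the same length, so CPM was compared between genes without a correction for length. In 77 of the 406 windows over 20% of the 32-base words occur again in the genome (at most 60.3%). Part of the reads there could be shared with relatives, which limits such comparisons. The mean CPM over the 8 libraries ran from 0.509 to 75.4, with a median of 11.4 and quartiles of 5.77 and 20.4. It was over 10 CPM at 115 genes and under 1 CPM at 4. The median of the promoter windows was 13.2 CPM and that of the flanking windows 1.66, against 10.4 for all promoter windows of the genome, 12.2 for those of other chromosome 19 genes and 17.7 for those of ZNF genes on other chromosomes.

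ZNF700 had the highest gene window, at 64.2 and 65.3 CPM in WT, 66.4 and 60.6 in WT + IFNα, 84.5 and 87.9 in USP18-/- and 93.5 and 81.1 in USP18-/- + IFNα. It was followed by ZNF274, ZNF414, ZNF93 and ZNF561 (means of 70.3, 63.3, 51.3 and 50.9 CPM). In untreated WT libraries ZNF700 stood above the other 4 genes, which lay between 43.6 and 49.5 CPM with neighbours in that order overlapping. In USP18-/- + IFNα libraries ZNF274 (107 and 116 CPM) was above ZNF700, and ZNF414 (91.8 and 93.3) overlapped ZNF700. The lowest gene windows were those of ZNF677, ZNF358, ZNF30, ZNF844 and ZNF681 (0.509 to 1.14 CPM). At ZNF30 all 4 USP18-/- libraries were above all 4 WT libraries, and at the other 4 genes the genotypes overlapped. The gene window of ZNF358 was too low to be tested.

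**Figure D1:**
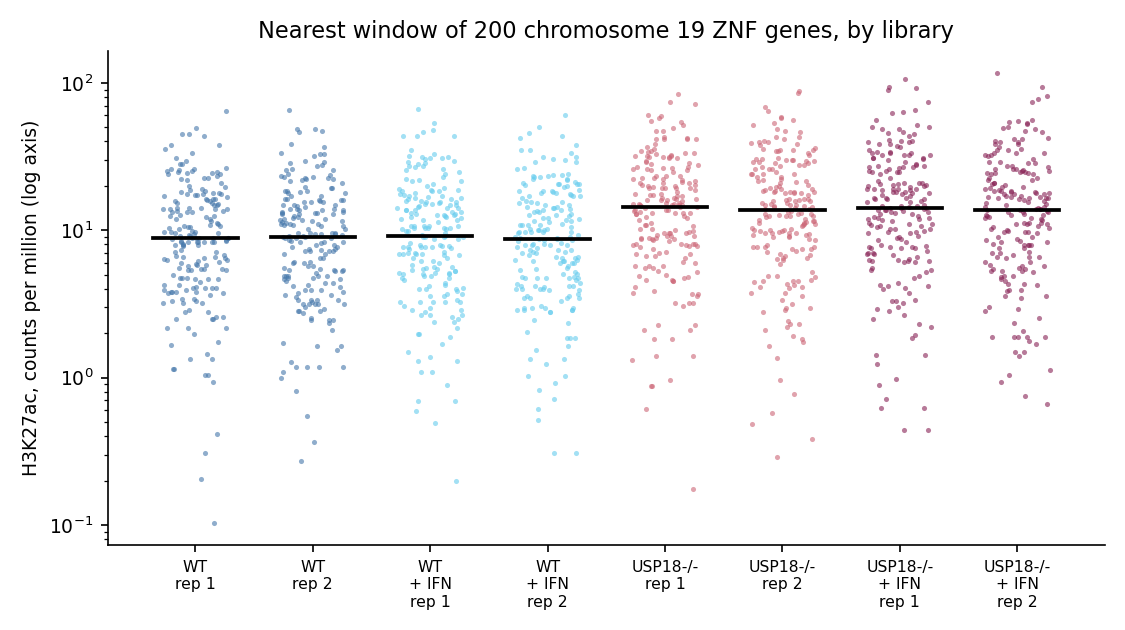
H3K27ac at the window nearest to the TSS of 200 chromosome 19 ZNF genes, in CPM on a log axis, with 1 point per gene and 1 column per library; black lines are medians. The medians of the 4 WT libraries lie between 8.72 and 9.17 CPM and those of the 4 USP18-/- libraries between 13.7 and 14.4 CPM.

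By their median level the libraries grouped by genotype and not by treatment. The medians of the gene windows were 8.78 and 9.03 CPM in the WT libraries, 9.17 and 8.72 in WT + IFNα, 14.4 and 13.7 in USP18-/- and 14.2 and 13.7 in USP18-/- + IFNα. All 4 USP18-/- libraries were thus above all 4 WT libraries, and within a genotype the treated and untreated libraries overlapped. At single windows, all 4 USP18-/- libraries were above all 4 WT libraries in 236 of the 395 windows with enough reads to be tested (59.7%, against 16.3% of all windows tested). All 4 were below in 11 (2.78%, against 17.4%). Of the 11 windows left untested for low counts, 1 was a promoter window and 10 were flanking, and every one of the 200 genes kept at least 1 tested window.

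The first comparison asked what IFNα did to these genes in WT cells. None of the 395 windows was called higher or lower, where a call needed more than a 2-fold difference and an adjusted p under 0.05 (from the quasi-likelihood test of edgeR, adjusted by the Benjamini-Hochberg method across 123276 windows, as for every adjusted p below). Among all windows tested, 0.344% were called higher and 0.0381% lower, and among all promoter windows 0.472% and 0.0265%. At an unadjusted p under 0.05 there were 13 windows higher and 13 lower, the smallest adjusted p from edgeR was 0.177, and DESeq2 also called none in either direction. With no fold threshold there was also none, against 0.653% higher and 0.153% lower of all windows. The median log2 difference was 0.01.

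The second comparison, between untreated USP18-/- and WT cells, showed a broad rise. Of the 395 windows, 64 at 44 genes were called higher (16.2%, against 5.66% of all windows tested) and 7 at 6 genes were called lower (1.77%, against 10.8%). Of the windows called higher 57 were at promoters, which is 18.6% of the 307 promoter windows tested, against 7.27% of all promoter windows. Only 1 promoter window was lower (0.326%, against 3.43%). Most of the rise was smaller than 2-fold. With no fold threshold, 232 windows (58.7%, against 16.9%) were higher and 14 (3.54%, against 16.8%) were lower. Among the gene windows 185 of 199 had a positive difference, and their median log2 difference was 0.60. Of these gene windows 33 were called higher and 3 lower.

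In the third comparison, with IFNα in both genotypes, 77 windows at 53 genes were called higher in USP18-/- cells (19.5%, against 11.3% of all windows tested) and 9 at 6 genes lower (2.28%, against 13.4%). Promoter windows made up 65 of the 77, or 21.2% of those tested, against 14.9% of all promoter windows, and 2 of the 9 (0.651%, against 4.50%). With no fold threshold 231 windows were higher (58.5%, against 21.3%) and 15 lower (3.80%, against 19.4%). The gene windows had a median difference of 0.61, and 176 of 199 were positive. Both genotype comparisons together called 103 windows at 69 genes higher, and 38 windows at 28 genes were called in both, which is 59.4% of the untreated list and 49.4% of the IFNα list. The 2 comparisons use different libraries, but of the same genotypes and with a shared estimate of the spread, so neither is a replication of the other. The matching overlap over all windows was not counted, so these shares are a description only.

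The size of these counts depended on how libraries were scaled. With normalization factors taken from chromosome 19 windows alone, 12 windows were called higher and 13 lower in untreated cells (48% of calls were higher, against 90.1% in the main analysis), and 27 higher and 20 lower with IFNα (57.4%, against 89.5%). Under those factors 2.41% of all windows were higher in untreated cells and 6.38% with IFNα, near the 3.04 and 6.84% of the ZNF windows, while 19.8 and 21.4% of all windows were lower, against 3.29 and 5.06%. Scaling by the sum of counts gave 34 higher and 7 lower (82.9%) and 34 higher and 19 lower (64.2%). There the ZNF windows called higher were 8.61% in each comparison, against 4.02 and 7.1% of all windows, and those called lower 1.77 and 4.81%, against 13.7 and 19.6%. Those scalings shifted the median of all windows to -0.39 and -0.34 (chromosome 19 factors) and to -0.16 and -0.27 (sum of counts) for untreated and IFNα-treated cells. Relative to the median of all windows, the median of the ZNF windows was 0.58 higher in untreated cells and 0.56 higher with IFNα under each of these scalings. A scaling shifts every window nearly alike, so this relative difference could hardly change and is no check of the rise. With an offset for GC content fitted for each library, which is not such a shift, it was 0.39 and 0.50.

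**Figure D2:**
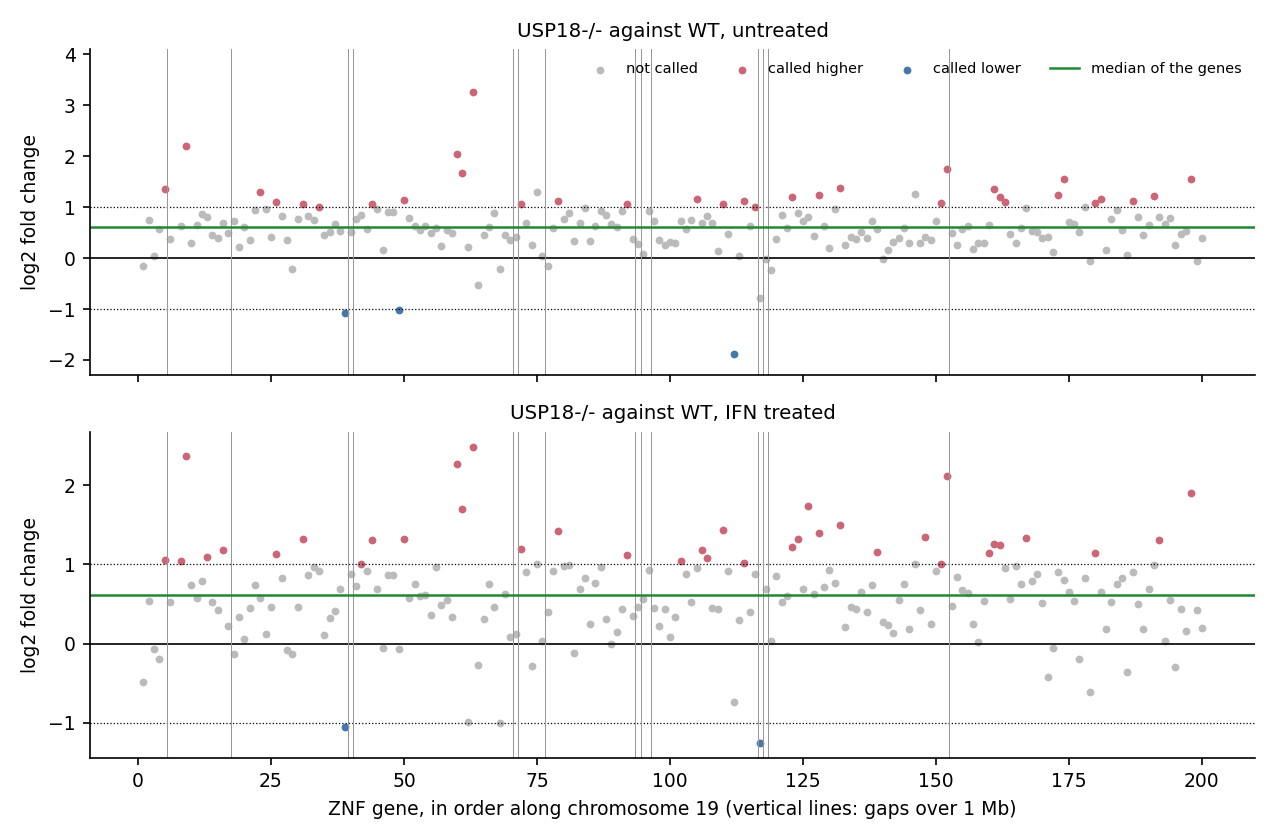
The log2 difference in H3K27ac between USP18-/- and WT cells at the gene window of each ZNF gene, in the order of the genes along chromosome 19, untreated (top) and with IFNα (bottom). Grey vertical lines are gaps over 1 Mb, the green line is the median (0.60 and 0.61), and red and blue points were called higher (33 and 37) or lower (3 and 2).

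The rise with the smallest adjusted p was at ZNF558, a KRAB zinc finger gene whose product represses the mitochondrial gene SPATA18. Its promoter window (chr19:8831850-8832850, centred 46 bp upstream of the TSS) stood at 8.88 and 8.80 CPM in WT, 10.7 and 8.72 in WT + IFNα, 43.1 and 38.3 in USP18-/- and 50.4 and 50.1 in USP18-/- + IFNα. The genotypes did not overlap, and the 4 WT libraries lay close together. The log2 difference was 2.20 ± 0.14 (SE) in untreated cells (edgeR adjusted p = 7.1e-25) and 2.37 ± 0.13 with IFNα (edgeR adjusted p = 4.3e-28).

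A group of neighbours in the cluster at chr19:19668292-24087999 rose from low levels. ZNF99 stood at 0.310 and 0.272 CPM in WT, 0.595 and 0.308 in WT + IFNα, 3.84 and 1.83 in USP18-/- and 2.66 and 2.53 in USP18-/- + IFNα. ZNF257 stood at 1.96 and 1.18, then 1.49 and 1.03, then 5.67 and 7.22, then 6.92 and 5.26 CPM in the same order of groups. ZNF98 stood at 5.99 and 6.08, then 4.26 and 6.56, then 20.0 and 18.5, then 19.1 and 16.1 CPM. At all 3 promoters the genotypes did not overlap and the treated and untreated libraries of USP18-/- cells overlapped. The log2 differences in untreated cells were 3.25 ± 0.51, 2.04 ± 0.29 and 1.67 ± 0.18 (edgeR adjusted p = 1.5e-07, 1.2e-08 and 2.9e-13). Of the bases in these windows, 19, 21 and 24.6% fell in 32-base words that occur again in the genome, so part of their reads could be shared with relatives.

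ZNF331, an imprinted zinc finger gene at the end of the cluster that begins with ZNF175, stood at 2.89 and 4.08 CPM in WT, 3.67 and 2.87 in WT + IFNα, 12.6 and 11.2 in USP18-/- and 15.5 and 13 in USP18-/- + IFNα. ZNF132, near the end of the long arm, stood at 3.41 and 2.45, then 2.87 and 1.85, then 7.94 and 9.24, then 9.14 and 8.64 CPM. Neither overlapped between genotypes. The log2 differences in untreated cells were 1.75 ± 0.21 and 1.56 ± 0.24 (edgeR adjusted p = 6.2e-11 and 7.3e-08), and with IFNα they were 2.12 ± 0.21 and 1.90 ± 0.25 (edgeR adjusted p = 1.4e-14 and 3.4e-10). At ZNF540 the window at -1 bp was called higher in both genotype comparisons. The ZNF540 window 378 bp inside the gene was called with IFNα only (2.29 ± 0.67, edgeR adjusted p = 0.0032). Untreated, its difference was 1.01 (edgeR adjusted p = 0.16), and it stayed at or below 1.54 CPM in every library. Whether its genotype effect differed with treatment was tested by the interaction, which was 1.28 ± 0.91 (edgeR adjusted p = 0.46).

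Windows that fell in USP18-/- cells were few, mostly away from promoters and low. The steepest was a window 6950 bp upstream of ZNF320 (chr19:52904144-52905144, overlapping an annotated exon of ZNF888), at 3.72 and 4.36 CPM in WT, 3.77 and 4.1 in WT + IFNα, 0.611 and 0.577 in USP18-/- and 0.621 and 0.751 in USP18-/- + IFNα. Its log2 difference in untreated cells was -2.74 ± 0.39 (edgeR adjusted p = 6.9e-09), and 35.1% of its bases fell in repeated 32-base words. A window in intron 1 of ZNF837 stood at 5.08 to 5.79 CPM in the 4 WT libraries and 1.31 to 2.31 in the 4 USP18-/- libraries (-1.49 ± 0.28 and -1.85 ± 0.30, edgeR adjusted p = 1e-05 and 2e-07). A window in intron 1 of ZNF791 was the third one lower in both comparisons (-1.08 ± 0.28 and -1.06 ± 0.29, edgeR adjusted p = 0.0013 and 0.0017).

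ZNF233 was the gene whose promoter window was called lower in untreated cells, at 2.17 and 1.63 CPM in WT and 0.611 and 0.385 in USP18-/- (-1.89 ± 0.50, edgeR adjusted p = 0.0016). With IFNα its USP18-/- libraries were at 0.621 and 1.5 CPM and the difference was not called (edgeR adjusted p = 0.19). At ZNF114 both promoter windows were called lower with IFNα. The one in an intron, 637 bp inside the gene, stood at 14 and 13.3 CPM in WT, 11.5 and 11.9 in WT + IFNα, 8.03 and 7.89 in USP18-/- and 4.70 and 4.88 in USP18-/- + IFNα. The groups did not overlap in either genotype comparison. The difference was -0.78 ± 0.17 untreated, under the fold threshold, and -1.29 ± 0.20 with IFNα (edgeR adjusted p = 0.00017 and 2.9e-08). The gene window of ZNF114, which overlaps it and is centred 132 bp inside the gene, had differences of -0.78 ± 0.16 and -1.26 ± 0.18.

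**Figure D3:**
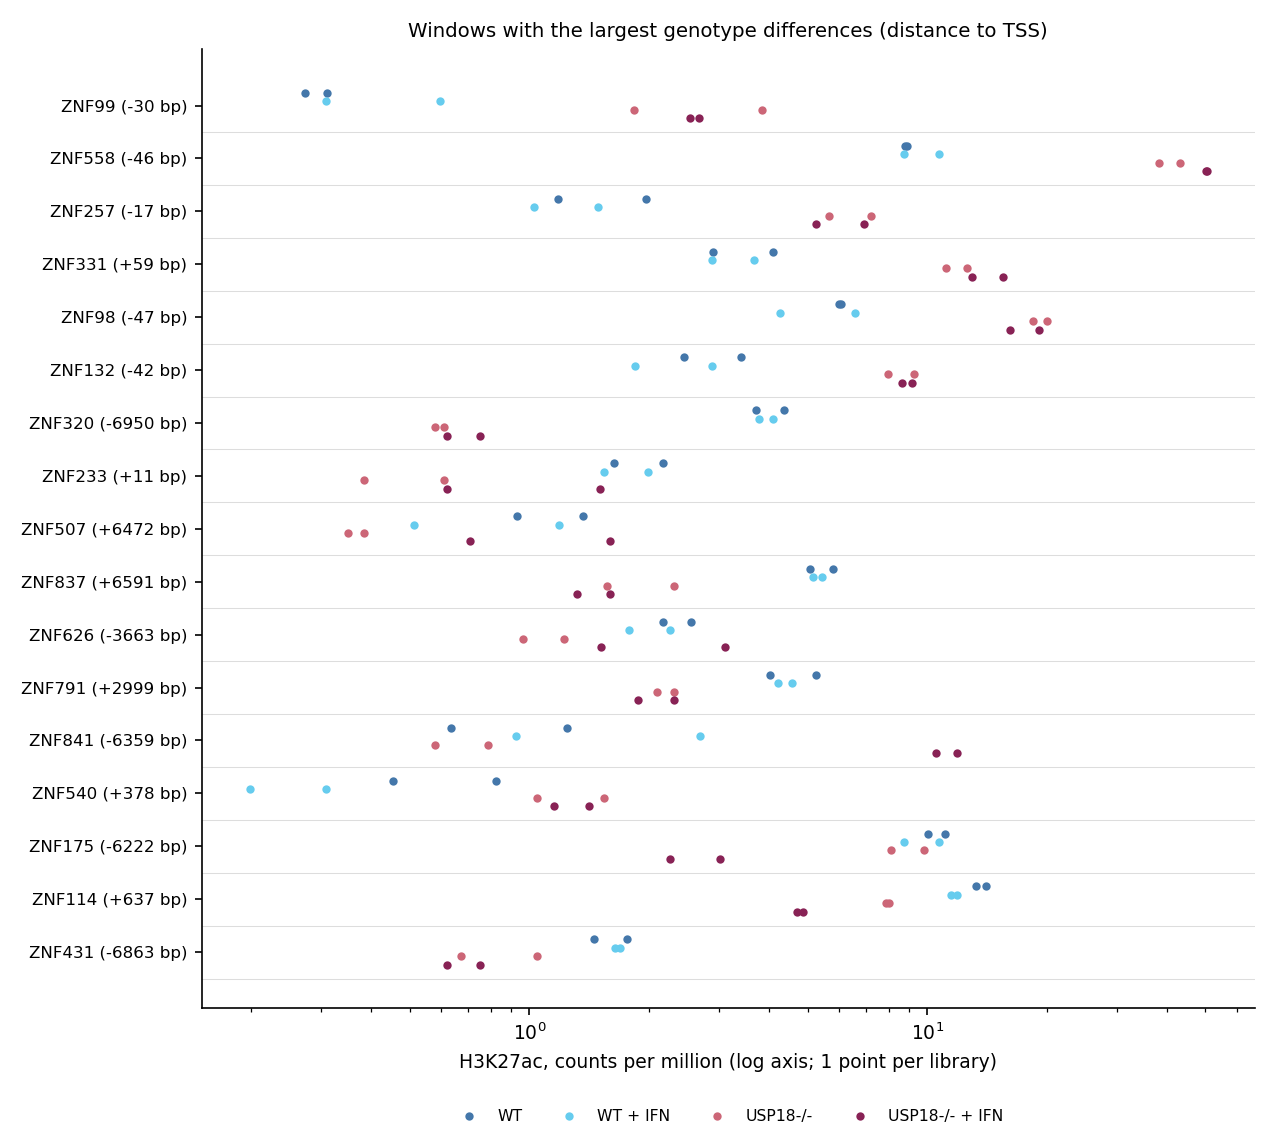
H3K27ac in CPM on a log axis at the windows with the largest differences between genotypes, with 1 point per library and the distance to the TSS beside each gene. At ZNF558 the 4 WT libraries lie at 8.72 to 10.7 CPM and the 4 USP18-/- libraries at 38.3 to 50.4, whereas at ZNF320 the WT libraries are the higher ones.

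Positive medians ran along the whole chromosome, with exceptions at lone genes. Splitting the genes wherever neighbouring windows were over 1 Mb apart gave 15 stretches, 9 of which held at least 5 genes and 193 genes in all. The median log2 difference of their windows in untreated cells was between 0.40 and 0.79 in those 9 stretches, and between 0.41 and 0.74 with IFNα. The highest untreated median, 0.79, was in the 17 genes from ZNF146 to ZNF573 (chr19:36207561-37780412), where 6 of 30 windows were called higher. Near genes of other names in that span it was 5 of 14 windows. The lowest, 0.40, was in the 34 genes from ZNF175 to ZNF331 (chr19:51564515-53550040), where 7 of 67 tested windows were called higher in untreated cells and 17 with IFNα. In the same span the windows near genes of other names had medians of 0.85 untreated and 1.38 with IFNα. The ZNF windows there stood at 0.59 with IFNα. Of the 33 windows near other genes 11 were called higher untreated and 19 with IFNα. The 48 genes from ZNF628 to ZNF446 (chr19:55476080-58476574) gave 15 and 16 of 91, and the 30 genes from ZNF101 to ZNF254 gave 13 and 12 of 62. Windows near other genes in these spans gave 4 and 6 of 47 and 0 and 0 of 4. Over all windows tested, 5.66% were called higher untreated and 11.3% with IFNα. ZNF114 (median -0.72) and ZNF473 (-0.09), each alone in its stretch, were the exceptions to a positive median in untreated cells.

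Promoters of other genes on chromosome 19 also had a positive median, of smaller size. The median log2 difference in untreated cells was 0.62 at the 307 ZNF promoter windows (96.4% positive), 0.48 at 1246 promoter windows of other chromosome 19 genes, 0.43 at 313 promoter windows of ZNF genes on other chromosomes and 0.34 at all 22660 promoter windows. Calls of higher signal made up 18.6, 11.2, 5.75 and 7.27% of these lists. With IFNα the medians were 0.65, 0.46, 0.50 and 0.39. Flanking ZNF windows had medians of 0.18 and 0.22, near those of chromosome 19 windows over 10000 bp from a TSS (0.24 and 0.20). Zinc finger genes of the chromosome with other symbols (21 genes, 41 windows tested) had 10 windows higher and 2 lower in untreated cells, and a median of 0.67. These medians are descriptions, and differences between the lists were not tested.

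GC content differed between the lists, so medians were also set side by side within GC classes. Among promoter windows with 50 to 60% GC the untreated median was 0.67 at chromosome 19 ZNF genes, 0.46 at other chromosome 19 genes and 0.30 on other chromosomes. At 60 to 70% GC the values were 0.59, 0.50 and 0.37. Under 50% they were 0.55, 0.42 and 0.04. At 70% and over, with 5 ZNF windows, they were 0.39, 0.49 and 0.39, so there the ZNF windows did not have the highest median. With a GC offset fitted for each library, an analysis added after the data were seen, 37 windows were called higher in untreated cells and 62 with IFNα, and the median of all ZNF windows was 0.41 and 0.52, against 0.56 in both comparisons of the main analysis.

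**Figure D4:**
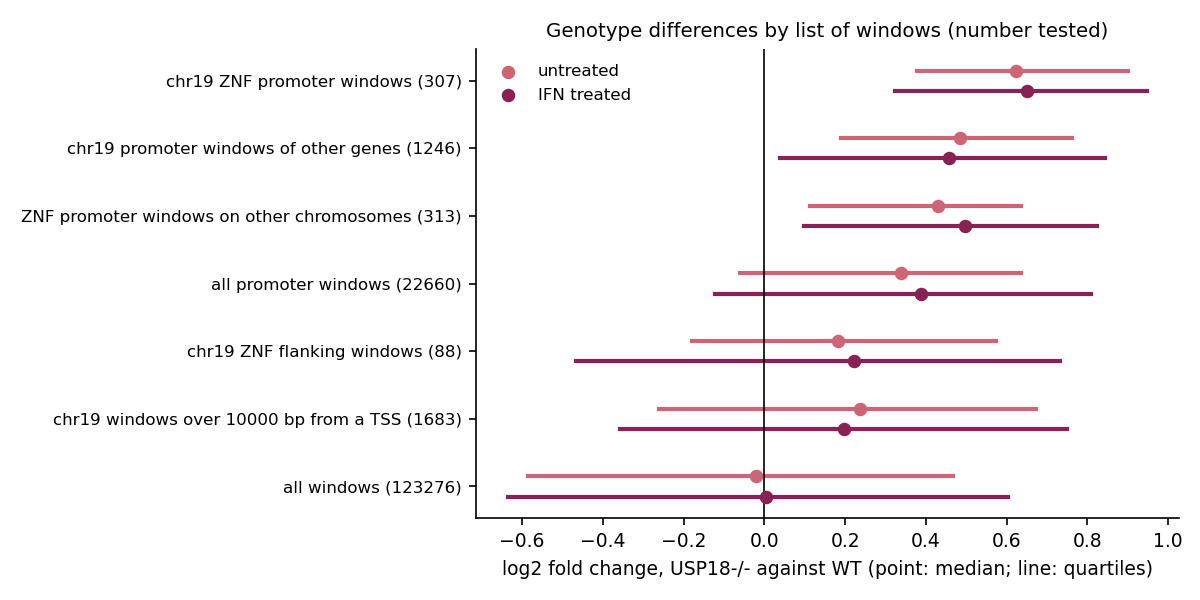
The log2 difference between USP18-/- and WT cells by list of windows, untreated and with IFNα; points are medians, lines run from the first to the third quartile, and the number of windows tested stands beside each name. The untreated medians fall from 0.62 at chromosome 19 ZNF promoter windows to -0.02 over all windows.

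Zinc finger genes with a known role were followed by name, whatever their values. ZNF91 and ZNF93 encode repressors of the SVA and LINE-1 retrotransposons. ZNF91 stood at 8.37 and 10.8 CPM in WT, 8.92 and 11.7 in WT + IFNα, 16.9 and 12.3 in USP18-/- and 20.4 and 14.1 in USP18-/- + IFNα, a difference of 0.61 ± 0.18 untreated (edgeR adjusted p = 0.004) that was under the fold threshold. Its replicates lay far apart, but the genotypes did not overlap. ZNF93 stood at 48.6 to 53.2 CPM in the WT libraries and at 48.7 to 56.2 in the USP18-/- libraries. The genotypes overlapped over the 8 libraries of ZNF93, although not among the untreated ones, with differences of 0.17 ± 0.10 and -0.06 ± 0.10 (edgeR adjusted p = 0.20 and 0.67).

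ZNF274 encodes a protein that binds the 3′ ends of zinc finger genes and brings SETDB1 to them. Its promoter window stood at 43.6 and 46.7 CPM in WT, 46.3 and 43.8 in WT + IFNα, 74.5 and 84.8 in USP18-/- and 107 and 116 in USP18-/- + IFNα. The WT libraries were alike with and without IFNα, while both treated USP18-/- libraries lay above both untreated ones. The differences were 0.82 ± 0.09 untreated and 1.31 ± 0.09 with IFNα (edgeR adjusted p = 1.1e-11 and 7.9e-22), and the IFNα effect in USP18-/- cells was 0.48 ± 0.09 (edgeR adjusted p = 6e-06). That effect exceeded the one in WT cells by 0.49 ± 0.13 (edgeR adjusted p = 0.0058), under the fold threshold. ZNF414 and ZNF566 were named for their values and not for a known role. ZNF414 had genotype differences of 0.62 ± 0.10 and 1.05 ± 0.09, and ZNF566 of 1.13 ± 0.11 and 1.42 ± 0.10.

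ZNF675, a protein that limits TRAF6 signalling, had a difference of 0.89 ± 0.15 untreated and 0.47 ± 0.15 with IFNα (edgeR adjusted p = 3.9e-07 and 0.0065). ZNF304 had 0.51 ± 0.26 and 0.88 ± 0.25 (edgeR adjusted p = 0.12 and 0.0029) and ZNF649 had 0.37 ± 0.18 and 0.86 ± 0.18 (edgeR adjusted p = 0.10 and 3.6e-05). ZNF175, known as a repressor of HIV-1 transcription in macrophages, was at 2.87 to 5.79 CPM at its promoter in all 8 libraries, over which the genotypes overlapped (-0.23 ± 0.24 and 0.03 ± 0.26, edgeR adjusted p = 0.50 and 0.94). ZNF382 and ZNF154 had no window that met the rule.

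The genes whose products work with KRAB proteins were read from a list of 19 (58 windows, all tested). In untreated cells none was called higher and 1 lower, a window at -4500 bp from the TSS of CHD3, a chromatin remodeller (-1.23). That is 0 and 1.72% of the list, against 5.66 and 10.8% of all windows. With IFNα 5 were higher, near ATF7IP, DNMT1, UHRF1, MPHOSPH8 and SMARCAD1 (1.01 to 1.53), and 3 were lower, near CHD3, HDAC2 and PPHLN1. These are 8.62 and 5.17% of the list, below the 11.3 and 13.4% of all windows. Their median log2 difference was 0.23 untreated and 0.30 with IFNα. TRIM28, the common partner of KRAB proteins and itself on chromosome 19, averaged 27.9 CPM in WT, 31.2 in WT + IFNα, 41.2 in USP18-/- and 41.3 in USP18-/- + IFNα at its promoter window, a difference of 0.57 untreated and 0.40 with IFNα (edgeR adjusted p = 1.9e-05 and 0.0016). The SETDB1 promoter windows at -94 and 297 bp were lower in untreated cells (-0.54 and -0.42, edgeR adjusted p = 6.4e-05 and 0.00072). With IFNα they stood at 0.05 and 0.15. At CBX5 the windows at -70 and 315 bp were lower in both comparisons (-0.29 and -0.46 untreated, -0.39 and -0.62 with IFNα). The CBX5 window at -54 bp stood at -0.0026 and 0.63. Of the 35 promoter windows of the list 26 had a positive difference untreated and 23 with IFNα.

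The fourth comparison was the effect of IFNα within USP18-/- cells. Here 10 windows at 7 genes were called higher (2.53%, against 7.14% of all windows tested) and 4 windows at 2 genes lower (1.01%, against 4.28%). The median over the ZNF windows was -0.0049. Of the 10 windows 7 were flanking and 3 were promoter windows (0.977%, against 3.90% of all promoter windows), and of the 4 lower ones 2 were promoter windows (0.651%, against 1.65%). In the cluster from ZNF175 to ZNF331, which held 67 of the 395 windows tested, lay 5 of the 10, all of them windows of ZNF841 or ZNF83. Near genes of other names in that span 7 of 33 windows were called higher. With no fold threshold 44 windows were higher (11.1%, against 13.0%) and 29 lower (7.34%, against 11.2%). Without USP18-/- untreated replicate 1, 5 windows were higher and 7 lower. Without USP18-/- + IFNα replicate 1, 9 were lower.

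ZNF841 changed most. An intergenic window 6359 bp upstream of it (chr19:52101624-52102624), which holds the pair of ISRE cores shown above, stood at 1.24 and 0.635 CPM in WT, 2.68 and 0.923 in WT + IFNα, 0.785 and 0.577 in USP18-/- and 11.9 and 10.5 in USP18-/- + IFNα. Only the treated USP18-/- libraries were high. The IFNα effect was 4.01 ± 0.32 in USP18-/- cells (edgeR adjusted p = 8e-19) and 0.97 ± 0.44 in WT cells (edgeR adjusted p = 0.47). The promoter window of ZNF841, which also covers exon sequence of its neighbour ZNF432, stood at 4.75 and 4.90, then 5.55 and 6.15, then 8.90 and 7.89, then 19.6 and 19.5 CPM. It rose by 1.22 ± 0.16 (edgeR adjusted p = 1.9e-09), and a window 7604 bp inside the gene rose by 1.26 ± 0.37 (edgeR adjusted p = 0.0059). In this gene the treated USP18-/- libraries were thus the highest at the promoter as well as at the upstream window.

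ZNF264 and ZNF224, the latter a repressor of the aldolase A gene, rose at windows beside their promoters. The ZNF264 window, intergenic and 1168 bp upstream, stood at 3.10 and 3.45 CPM in WT, 4.76 and 4.82 in WT + IFNα, 1.66 and 2.21 in USP18-/- and 13.4 and 15.1 in USP18-/- + IFNα. The ZNF224 window, in intron 1 and 1040 bp downstream, stood at 3.62 and 4.90, then 6.94 and 4.51, then 5.41 and 5.39, then 22.5 and 19.5 CPM. Both were highest in treated USP18-/- cells with no overlap, with IFNα effects of 2.88 ± 0.23 and 1.96 ± 0.18 there (edgeR adjusted p = 1e-18 and 8.8e-16). The ZNF264 window held an ISRE core. The ZNF224 window held none.

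A pair of overlapping windows of ZNF83 rose by close to 2-fold. The one 314 bp inside the gene stood at 13.9 and 10.1 CPM in WT, 16.1 and 12 in WT + IFNα, 13.3 and 15.1 in USP18-/- and 29.3 and 30.3 in USP18-/- + IFNα (1.07 ± 0.14, edgeR adjusted p = 1e-09). The remaining windows called higher were faint. Those of ZNF44, ZNF507 and ZNF626 stayed at or under 3.10 CPM in every library and were called narrowly (edgeR adjusted p = 0.0497, 0.0489 and 0.037). The calls of ZNF44 and ZNF507 were lost under 8 and 10 alternatives.

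A pair of overlapping windows upstream of ZNF175 fell. The one 6222 bp upstream (chr19:51564515-51565515, overlapping an exon of the pseudogene SIGLEC29P) stood at 10.0 and 11.1 CPM in WT, 10.7 and 8.72 in WT + IFNα, 8.12 and 9.82 in USP18-/- and 3.02 and 2.25 in USP18-/- + IFNα. The one 5506 bp upstream shares reads with it and stood at 2.04 and 2.44 CPM in treated USP18-/- cells and at 7.73 to 11.2 CPM in the other 6 libraries. The IFNα effects were -1.75 ± 0.23 and -1.93 ± 0.24 (edgeR adjusted p = 1.1e-09 and 2.5e-10). At ZNF439 the promoter window stood at 9.40 and 11.0 CPM in WT, 7.73 and 8.92 in WT + IFNα, 26.4 and 24 in USP18-/- and 12.8 and 12 in USP18-/- + IFNα. Untreated USP18-/- cells were thus the high group, and IFNα brought the level down by 1.02 on the log2 scale (SE 0.15, edgeR adjusted p = 9.7e-09).

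**Figure D5:**
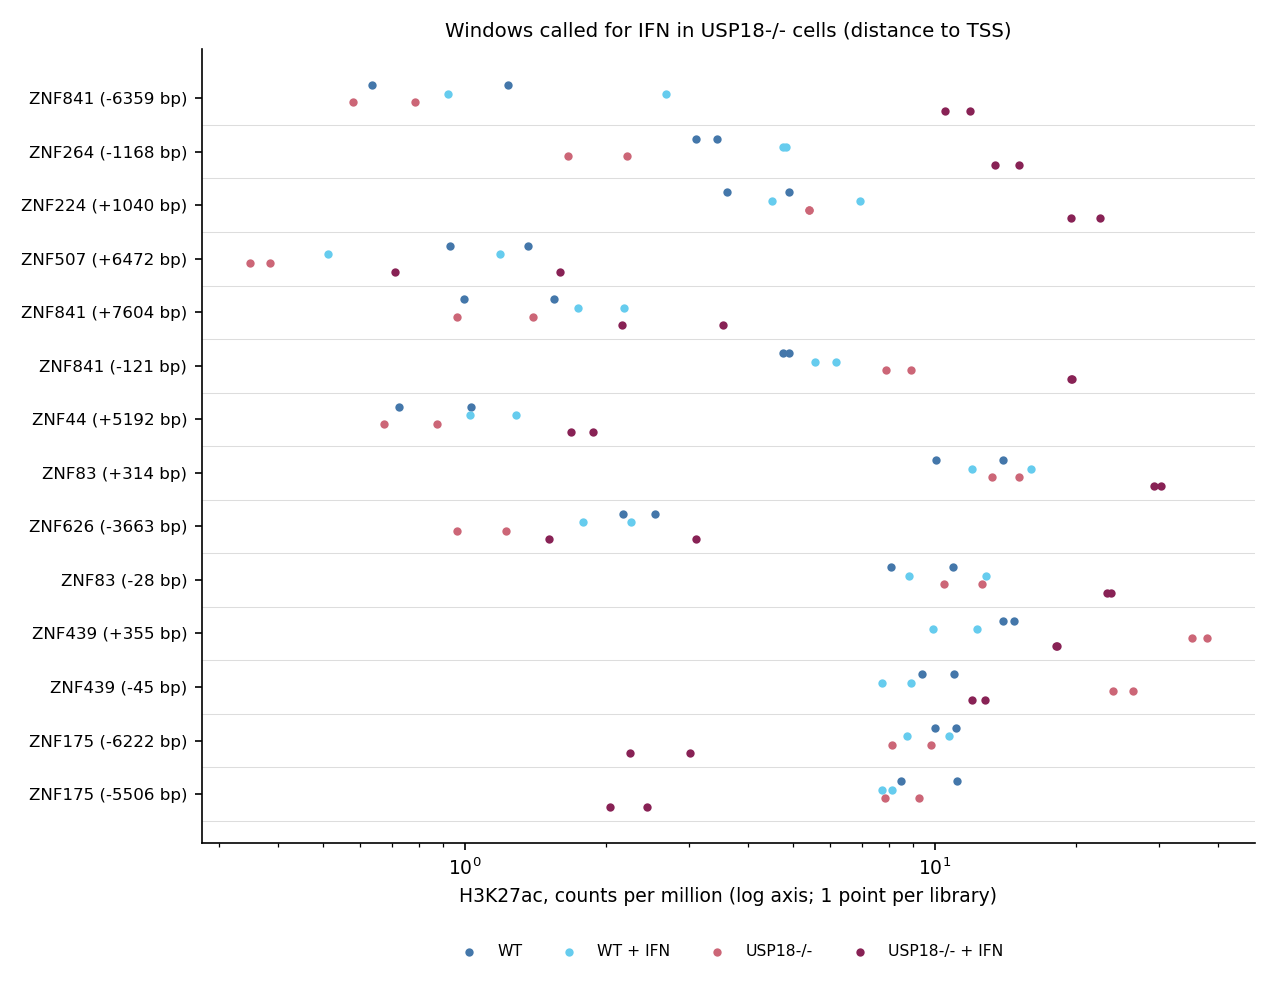
H3K27ac in CPM on a log axis at the 14 windows called for IFNα within USP18-/- cells, 10 higher (top) and 4 lower (bottom), with 1 point per library. At the upstream ZNF841 window the treated USP18-/- libraries lie at 10.5 and 11.9 CPM and the other 6 at 0.577 to 2.68.

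The last comparison tested whether the IFNα effect differed between genotypes (effect in USP18-/- minus effect in WT cells). It was called larger at 3 windows (0.759%, against 4.66% of all windows tested), those of ZNF841, ZNF264 and ZNF224 described above, and smaller at 6 windows of 4 genes (1.52%, against 2.51%). None of the former and 3 of the latter were promoter windows (0.977%, against 2.78% larger and 1.11% smaller of all promoter windows). With no fold threshold 18 were larger (4.56%, against 6.84%) and 15 smaller (3.80%, against 5.22%). The log2 differences of the effects were 3.04 ± 0.62, 2.34 ± 0.36 and 1.54 ± 0.30 (edgeR adjusted p = 0.00012, 4.5e-07 and 7.2e-05). The smaller ones were at both upstream windows of ZNF175 and at windows of ZNF492, ZNF414 and ZNF69. At ZNF69, 418 bp inside the gene, the libraries stood at 7.44 and 8.08 CPM in WT, 8.82 and 8.72 in WT + IFNα, 16.7 and 19.1 in USP18-/- and 8.96 and 11.1 in USP18-/- + IFNα (-1.01 ± 0.25, edgeR adjusted p = 0.002). As at ZNF439, untreated USP18-/- cells were the high group. The smaller effects at ZNF492, ZNF414 and ZNF69 were close to the thresholds, and their calls were lost under 6, 7 and 6 alternatives. Leaving out 1 library at a time gave 3 to 5 larger effects (5 without WT + IFNα replicate 1 or WT untreated replicate 2) and 2 to 7 smaller ones (2 without WT + IFNα replicate 1, 3 without USP18-/- untreated replicate 2 or WT untreated replicate 1).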

How the data were processed

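H3K27ac ChIP-seq of 8 THP-1 libraries was analysed; the input libraries were not used here. Per the labels and the study's methods, the authors aligned reads to hg38 with Bowtie2 and used HOMER to deposit unnormalized tags per 1000 bp window centred on merged ATAC-seq regions; the submitters' processing notes also name DESeq2, and versions are not given in the sources used here. The deposited values are estimated counts in steps of 0.5 (52.2% were whole) and were rounded to whole numbers, with 0.5 rounded up. Windows with at least 10 counts in at least 2 libraries (123276) were fitted in edgeR 4.0.16 (R 4.3.3, limma 3.58.1) with TMM normalization, 4 group means and the quasi-likelihood test, adjusted by Benjamini-Hochberg over all windows; a call needed over 2-fold and an adjusted p under 0.05. CPM used TMM library sizes. Each SE was the absolute log2 difference divided by the square root of the F value of the test, so it adds no information beyond the test. Depth limits low windows. In counts simulated for the untreated genotype comparison over 116782 windows, 136 of 177 windows changed 3-fold were called, and 102 of 104 of those with a mean of at least 30 counts. The simulation changed few windows and gave all of them the same spread beyond sampling noise, so these rates need not hold in the data. Alternatives were DESeq2 1.42.0, other scalings, filters, sample sets, a replicate block and leaving out each library; a GC offset was added after seeing the data. Figures were drawn with Python 3.11.15 and matplotlib 3.10.9.

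The genes, lists and tests were chosen with earlier results of these data known. Windows named were, per comparison, those with the 6 largest rises and 6 largest falls among called windows whose groups did not overlap (1 per gene), the 5 highest and 5 lowest gene windows, the highest of each stretch of at least 5 genes and genes of known role; other names are of windows in short counts and were picked after their values were seen. Replicates of a group differed by more than sampling noise. Replicate numbers did not pair libraries of different groups (correlation of deviations 0.00117 to 0.0463). Protein sequences were not analysed here.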

Additional observations from a re-analysis of the deposited data

Results flagged for a closer look

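The effect of IFNα differed between genotypes at 9 windows by the interaction test of edgeR (Benjamini-Hochberg adjusted p under 0.05 and a difference over 2-fold). In 3 windows the effect was larger in USP18-/- cells. The difference of log2 effects was 3.04 at the window 6359 bp upstream of ZNF841 (0.97 in WT, 4.01 in USP18-/-), 2.34 at the window 1168 bp upstream of ZNF264 (0.54 and 2.88) and 1.54 at the window 1040 bp inside ZNF224 (0.42 and 1.96). In each of these windows both treated USP18-/- libraries were the highest of the 8.

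In 6 windows the effect was lower in USP18-/- cells. The difference was -1.63 and -1.61 at the windows 6222 and 5506 bp upstream of ZNF175 (edgeR adjusted p = 1.9e-05 and 7.2e-05), where WT cells changed by -0.12 and -0.32. It was -1.01 at ZNF69 (0.17 in WT and -0.83 in USP18-/- cells) and -1.02 at the window 1868 bp inside ZNF414 (0.35 and -0.67, edgeR adjusted p = 0.018). At ZNF492 it was -1.21 at both of a pair of overlapping windows (edgeR adjusted p = 0.033 and 0.031). The ZNF492 window at 321 bp lost its call with DESeq2 (adjusted p = 0.149) and without each of 5 libraries, and the ZNF414 window lost it with DESeq2 (adjusted p = 0.0944), with chromosome 19 factors, with the GC offset and without each of 4 libraries. The ZNF69 window lost it with chromosome 19 factors and with the GC offset (-0.98 and -0.97) and without each of 4 libraries. No single WT effect at these 9 windows passed the test.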

How the results depend on the processing

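In the simulated counts depth limited the calls at windows with a mean under 30 counts. Of the ZNF windows 57.9% overlapped another. In untreated cells the count of windows higher in USP18-/- cells (64) became 34 with scaling by the sum of counts, 12 with chromosome 19 factors, 37 with the GC offset (chosen after seeing the data) and 232 with no fold threshold. The count lower (7) became 4 with DESeq2, 13 with chromosome 19 factors and 14 with no fold threshold, and the median (0.56) became 0.42, 0.19 and 0.41 with sum, chromosome 19 and GC scaling. With IFNα the count higher (77) became 34, 27 and 231 with sum scaling, chromosome 19 factors and no fold threshold, the count lower (9) became 19, 20 and 15, and the median (0.56) became 0.28 and 0.22, 0.52 with the GC offset and 0.52 with only the 2 groups compared. For IFNα in USP18-/- cells the count higher (10) became 6 with DESeq2, 5 with sum scaling and 44 with no fold threshold, the count lower (4) became 2 with chromosome 19 factors and 29 with no fold threshold, and the median became -0.14 with sum scaling. For the difference of IFNα effects the count higher (3) became 18 and the count lower (6) 15 with no fold threshold, the latter 3 with DESeq2, and the median became -0.12 with sum scaling. A scaling shifts every window by construction, and the cause of the other changes was not tested.

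Leaving out 1 library at a time gave 4 to 7 windows lower in untreated cells (4 without USP18-/- untreated replicate 2 or WT untreated replicate 2) and medians of 0.53 to 0.61 with IFNα. It gave 5 to 10 higher, 3 to 9 lower and medians of -0.0466 to 0.0145 for IFNα in USP18-/- cells, 3 to 5 higher, 2 to 7 lower and medians of -0.0465 to 0.0283 for the difference of effects, and medians of -0.0323 to 0.0328 for IFNα in WT cells. No window was called for IFNα in WT cells under any alternative with the fold threshold, nor without it. Where a library was left out, the lone sample of its group was assumed to vary like the others. Among the named windows the signs turned with chromosome 19 factors at ZNF93 (-0.21, untreated), ZNF649 (-3.2e-05, untreated) and the ZNF175 promoter (-0.31, with IFNα). The ZNF175 promoter also turned with sum scaling (-0.24), with only the 2 groups compared (-0.0093) and without USP18-/- + IFNα replicate 2 or WT + IFNα replicate 2 (-0.05 and -0.29, of a range of -0.29 to 0.46 over the left-out libraries). None of these was called in any direction. Of 45 called results at named windows 28 were kept under every alternative that gave them an adjusted p. Calls were lost under 1 to 4 alternatives at ZNF274 and ZNF414 (promoters, with IFNα), ZNF302 and ZNF791 (both genotype comparisons), ZNF507, ZNF566 and ZNF626 (untreated) and ZNF439 and ZNF83 (IFNα in USP18-/- cells), and under 6 to 10 at ZNF431 (with IFNα), ZNF44 and ZNF507 (IFNα in USP18-/- cells) and ZNF492, ZNF414 and ZNF69 (difference of effects). With the replicate block, 64 and 7 windows were called higher and lower in untreated cells, 78 and 9 with IFNα, 9 and 4 for IFNα in USP18-/- cells and 3 and 6 for the difference of effects.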
